A study of Gallus gallus with 40 samples.

Results

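Myogenic transcription factors were examined in pectoralis major of commercial broilers with white striping (WS) or wooden breast (WB). The genes were taken by name, namely PAX7, MYF5, MYF6, MYOD1, MYOG, MEF2A, MEF2C, MEF2D and TEAD4. Every array probe that could be named as a transcript of 1 of these 9 genes was kept. This gave 24 of 56401 probes, which represented 8 of the 9 genes. PAX7 had 4 probes, MEF2A 10 and TEAD4 5, whereas MYF5, MYF6, MYOD1, MYOG and MEF2C had 1 probe each. MEF2D had no matched probe and is not analysed here. Since 53.5% of the array's probes stayed unnamed, further probes of these genes, MEF2D included, may lie among them. All 24 probes passed the detection filter in both experiments. The MEF2C probe was named only through the study's supplementary gene lists, which had been chosen on the WS samples.

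These proteins direct the making and repair of skeletal muscle. PAX7 marks satellite cells, the stem cells that lie beside muscle fibres. When satellite cells are activated, MYF5 and MYOD1 commit them to the muscle lineage, MYOG drives their differentiation and fusion, and MYF6 acts late in differentiation and in mature fibres. MEF2 proteins and TEAD4 bind muscle gene promoters and work with these factors, and MEF2 proteins also act in mature fibres.

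All birds were male ROSS broilers, and each array carried total RNA of the breast muscle of a single bird. In the WB experiment, WB1 (severe WB with mild WS, 49 days, 2 arrays) was set against nonWB1 (mild WS, 49 days, 3 arrays). WB2 (severe WB with moderate WS, 49 days, 3 arrays) was set against nonWB2 (moderate WS, 49 days, 4 arrays). WB3 (severe WB with mild WS, 45 days or younger, 3 arrays) was set against nonWB3 (severe WS, 45 days or younger, 4 arrays), so that this pair also differed in striping. In the WS experiment there were 4 non-WS, 7 mild, 6 moderate and 4 severe WS arrays, whose ages the labels do not give. A label field of the WS arrays places the level under wooden breast, and the groups follow their titles. The study's methods describe no bird without WS at the age they cover, so the 4 non-WS arrays rest on their labels alone. Defects were graded by eye, and the RNA came from whole tissue, in which fewer cells of a type and less RNA per cell cannot be told apart.

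Median signal lay between 122 and 298 on the 19 WB-experiment arrays and between 76.4 and 259 on the 21 WS-experiment arrays, and 66.9% to 78.6% of spots were well above background. All WB arrays sat in the first row of their slide, as did 4 of the 11 non-WB arrays. On slides 1 and 2, non-WS and severe WS arrays sat in the first row and mild and moderate WS arrays in the second, so position and group cannot be told apart there. WB3 replicate 3 had the lowest median signal of the WB experiment (122) and a low summed signal of fibroblast markers (191325, against 250522 to 491874 on the other 7 WB arrays). The muscle fibre markers TNNT3, TNNI2 and TNNC2, components of fast troponin, had levels from 182056 to 320008 in the WB experiment.

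MYOG was the only one of the 8 genes called higher in WB muscle. Its normalized intensity was 2404 and 1081 in WB1, against 225, 289 and 751 in nonWB1. It was 679.5, 678 and 873 in WB2, against 453, 511, 553 and 339 in nonWB2, and 780.5, 896 and 418 in WB3, against 351, 487, 624 and 306 in nonWB3. WB1 and WB2 did not overlap their non-WB groups, and WB3 did, through its replicate 3. Non-overlap with the higher level in WB held for 28.0% of all probes and 2 of the 24 in the first pair, 6.52% and 2 in the second, and 3.02% and 0 in the third. With the lower level in WB it held for 29.6% and 13, 7.36% and 2, and 3.20% and 0 in the same order. Of the 13, 10 were the probes of MEF2A, which share a gene, and 4 of the 13 were the brightest probe of their gene.

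Averaged over the 3 pairs, MYOG rose by a log2FC of 1.06 (SE 0.25, 95% confidence interval 0.52 to 1.60, limma adjusted p = 0.0139), and 7 of 8 WB arrays lay above the non-WB mean of their own slide. In this comparison 24.0% of all 34518 probes tested passed the call (FDR of 0.05 or less and FC of 1.2 or more in either direction), 11.3% upward and 12.7% downward, and 3 of the 24 probes did so, 1 upward and 2 downward. The differences between arrays behind these tests are differences between birds.

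The MYOG difference was largest in the first pair. WB1 averaged 1742 ± 935 (SD, n = 2) and nonWB1 422 ± 287 (n = 3), a log2FC of 2.14 (SE 0.47, adjusted p = 0.0198). Of all probes, 11.6% passed the call in WB1 against nonWB1, and MYOG was the only 1 of the 24 to do so. Its call in this pair was lost on leaving out any of 4 of the 5 arrays, all but nonWB1 replicate 3 (adjusted p of 0.0541 to 0.146, log2FC of 1.57 without WB1 replicate 1 to 2.73 without WB1 replicate 2), over first-row arrays alone (adjusted p = 0.0546) and by the methods' t-test (adjusted p = 0.208). WB2 averaged 743 ± 112 (n = 3) and nonWB2 464 ± 92.9 (n = 4), a log2FC of 0.55 (SE 0.42, adjusted p = 0.602). WB3 averaged 698 ± 249 (n = 3) and nonWB3 442 ± 144 (n = 4), a log2FC of 0.48 (SE 0.42, adjusted p = 0.642). The log2FC of these 2 pairs rest on 3 non-WB arrays each, those on the slide of the WB arrays. Replicate 4 of nonWB2 and of nonWB3 does not enter them. No probe of the array passed in either of these pairs, by limma or by the methods' t-test, and 4154 and 3800 probes stood at 0.05 or below before adjustment. Without WB3 replicate 3, 4560 of all probes passed in the third pair, none of them among the 24. Over the WB2 and WB3 pairs alone MYOG had a log2FC of 0.52 (SE 0.30, adjusted p = 0.332), a fit in which 2 of all probes passed. The log2FC of the first pair exceeded that of the second by 1.59 (adjusted p = 0.362) and that of the third by 1.66 (adjusted p = 0.501), so a difference between pairs was not established.

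**Figure D1:**
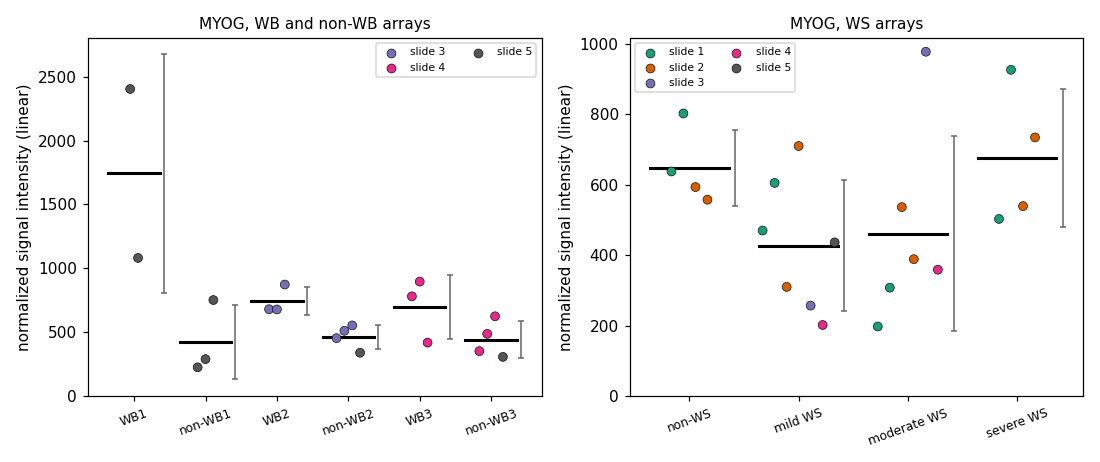
Normalized MYOG intensity (vertical axes, linear from 0) of each array, coloured by slide, in WB1, nonWB1, WB2, nonWB2, WB3 and nonWB3 (left) and in non-WS, mild, moderate and severe WS (right), with lines for group means and side bars for ± SD. Both WB1 arrays lie above every other array of the WB experiment, at 1081 and 2404, WB3 replicate 3 (418) is the only WB array below its own slide's non-WB mean, and the WS groups overlap.

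The MEF2 genes lay on the other side of 0. MEF2A, which is expressed in adult muscle and acts on metabolic and contractile genes, had 2 of its 10 probes called lower in WB. The probe of XM_015292073.1 fell by 0.29 (SE 0.099, adjusted p = 0.048) and that of XM_015292074.1 by 0.30 (SE 0.10, adjusted p = 0.0476). The other 8 probes, which share a gene and are no independent measurements, had log2FC of the same sign, and the 10 together spanned -0.33 to -0.27 with adjusted p of 0.0476 to 0.0813, although with the authors' values the sign of NM_204864.2 turned (0.0035) and XM_015292073.1 and XM_015292074.1 were at -0.04 and -0.05. On the WB-experiment arrays those values equal the unnormalized processed signal. They put the median log2FC of all probes at 0.29 over the 3 pairs and at 0.70 in the first pair. After quantile normalization it was -0.03 in both, and MEF2A lay below the median on either scale.

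On the brightest MEF2A probe, XM_015292075.1, the levels were 6384 and 5747 in WB1, against 8840.2, 9099 and 6861 in nonWB1. They were 5661, 7227 and 6796 in WB2, against 8799.7, 7737, 7511 and 6993 in nonWB2, and 5969.8, 6601 and 8767 in WB3, against 6819.6, 8809.9, 7668 and 9193 in nonWB3. Only the first pair was free of overlap. The mean log2FC was -0.29 (SE 0.11, adjusted p = 0.0619), and 7 of 8 WB arrays lay below the non-WB mean of their slide, WB3 replicate 3 being above it.

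The MEF2A calls stood close to the threshold. The call of XM_015292073.1 was lost on leaving out any of 13 single arrays of the 19 and that of XM_015292074.1 on leaving out any of 14, with log2FC of -0.33 to -0.25 and of -0.35 to -0.27. Both were also lost with the authors' values, without a detection filter, with detection in at least 1 group, with the row of the array in the fit and over the WB2 and WB3 pairs alone (log2FC -0.22 and -0.23).

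MEF2C, a regulator of sarcomere genes in differentiating and mature muscle, was measured at low intensity. It read 52.8 and 44.5 in WB1, against 79.6, 76.5 and 67.3 in nonWB1. It read 70.9, 72.6 and 56.3 in WB2, against 103, 149.8, 75.8 and 81.3 in nonWB2, and 61.9, 49.5 and 97.4 in WB3, against 50.8, 106, 104 and 108 in nonWB3. The first 2 pairs did not overlap, while in the third WB3 replicate 3 was high and nonWB3 replicate 1 was low. The mean log2FC of -0.53 (SE 0.19, 95% confidence interval -0.93 to -0.12) missed the call at an adjusted p of 0.0545. It passed on leaving out WB3 replicate 3 (-0.62, adjusted p = 0.0149), nonWB2 replicate 3 or nonWB3 replicate 1.

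**Figure D2:**
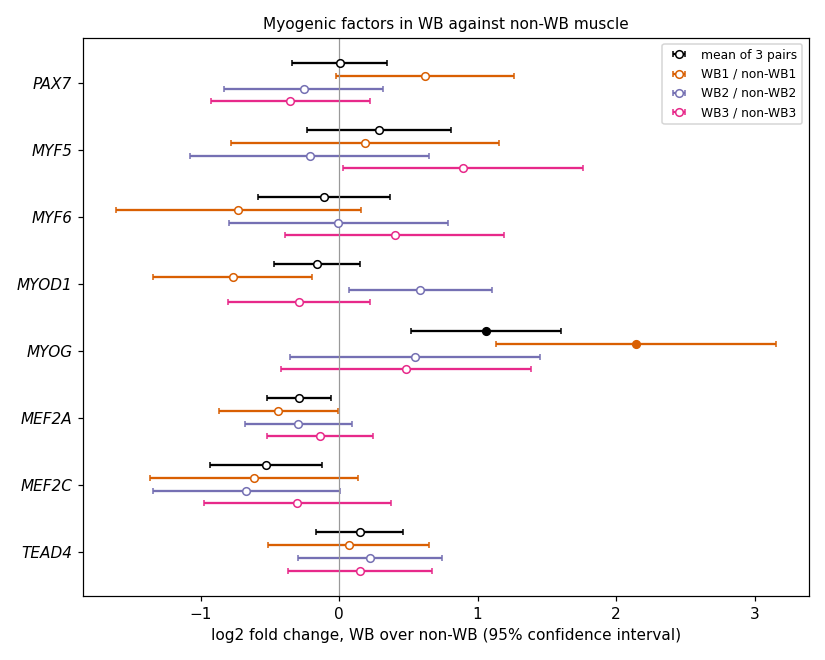
Log2FC of WB over non-WB (horizontal axis) with 95% confidence intervals for the brightest probe of each of the 8 genes, as the mean of the 3 pairs and for each pair. Filled points passed the call, which was the case for MYOG alone, in the mean (1.06) and in WB1 against nonWB1 (2.14).

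MYOD1, an early commitment factor, differed in sign between the pairs. Its level was 26709 and 20595 in WB1, against 37583, 58374 and 29104 in nonWB1 (log2FC -0.77, SE 0.27, adjusted p = 0.0709). It was 35774, 31835 and 41864 in WB2, against 22518, 28100.5, 22266 and 26425 in nonWB2 (log2FC 0.59, SE 0.24, adjusted p = 0.382). Neither of these pairs overlapped, all WB1 arrays being below and all WB2 arrays above their non-WB groups. The first log2FC minus the second was -1.36 (SE 0.36, 95% confidence interval -2.13 to -0.58), with an adjusted p of 0.213 over all probes. In the third pair MYOD1 read 24737, 34299 and 21419 in WB3, against 32055, 30679.8, 33659 and 10658 in nonWB3. The array at 10658 was on another slide than WB3 and did not enter the log2FC. Over the 3 pairs the mean log2FC of MYOD1 was -0.16 (95% confidence interval -0.47 to 0.15, adjusted p = 0.434). The log2FC of the first pair passed the call without WB3 replicate 3 or without nonWB1 replicate 3, and with 75th percentile scaling (-1.18, adjusted p = 0.0201).

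MYF5, which acts beside MYOD1 in commitment, was highest in WB3. It read 2299, 1168 and 857 there, against 477, 878, 856 and 1200.1 in nonWB3, with a log2FC of 0.89 (SE 0.40, adjusted p = 0.446). The groups overlapped, and the value was 0.49 without WB3 replicate 1. The mean over the 3 pairs was 0.29 (95% confidence interval -0.23 to 0.81, adjusted p = 0.386). MYF6 had a mean log2FC of -0.11 (95% confidence interval -0.58 to 0.37, adjusted p = 0.740), with 2565 and 2124 in WB1 below the 3418, 4237 and 3979 of nonWB1 and overlap in the other pairs.

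On the brightest of its 4 probes PAX7, the satellite cell marker, had 827 and 905 in WB1, against 337, 712 and 742 in nonWB1. The groups did not overlap on this probe (log2FC 0.62, SE 0.30, adjusted p = 0.160). On the other PAX7 probes they overlapped, with log2FC from 0.40. On the brightest probe PAX7 had 495, 561 and 541 in WB2, against 532, 795, 604 and 568 in nonWB2 (log2FC -0.25). It had 425, 573 and 389 in WB3, against 501, 586, 669 and 425 in nonWB3 (log2FC -0.35). The mean over pairs was 0.005 with a 95% confidence interval of -0.34 to 0.35 (adjusted p = 0.986), and the 4 probes spanned -0.17 to 0.005. TEAD4 had a mean log2FC of 0.15 (95% confidence interval -0.16 to 0.46, adjusted p = 0.465), and its 5 probes spanned 0.12 to 0.19.

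For no gene was the WB difference at 49 days distinguishable from that at 45 days or younger. The difference was 0.86 for MYOG (SE 0.53, adjusted p = 0.975) and -0.91 for MYF5 (SE 0.50, adjusted p = 0.975). No probe of the array passed this comparison, with 1463 at 0.05 or below before adjustment, and the third pair differed from the others in striping as well as in age.

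Genes known as targets of myogenic factors in vertebrate muscle were read beside them, from a list of 32 of which 27 had a probe and 25 were tested in the WB experiment. In WB, 12 of the 25 rose and 4 fell, where 11.3% of all probes rose and 12.7% fell, and their median log2FC was 0.64, against -0.03 over all probes. The list was chosen with earlier results of these data known, so these counts are a description and no test of the list. Several of those that rose belong to embryonic, slow or cardiac muscle. Other genes of such muscle in the list, TNNC1, ACTC1 and MYL4, did not pass. With 75th percentile scaling TNNC1, the troponin C of slow and cardiac muscle, was called lower (-0.41, adjusted p = 0.0417). CSRP3, a muscle LIM protein of the Z-disc, rose by 3.02 (SE 0.74, adjusted p = 0.0147). MYH15, a myosin heavy chain of developing and ventricular muscle in the chicken, rose by 2.91. TNNT2 and TNNI1, troponin subunits of cardiac and embryonic and of slow muscle, rose by 2.63 and 2.60, and MYOZ2, a Z-disc protein of slow and cardiac muscle, by 2.00.

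The acetylcholine receptor subunits CHRNG, the fetal form, and CHRND rose by 1.69 and 0.83. The adhesion molecules CDH2 and NCAM1 rose by 1.47 and 0.79, and the cell-cycle inhibitors CDKN1C and RB1 by 1.30 and 0.37. ANKRD1, a stretch-responsive protein of muscle, rose by 0.64. The 4 that fell were MYOM2 (-0.59), MYOZ1 (-0.54) and MYL1 (-0.49), structural proteins of fast fibres, and the myoblast cadherin CDH15 (-0.41). The troponin genes TNNT3, TNNI2 and TNNC2 had log2FC between -0.10 and -0.03 and did not pass. These values depended on the scaling, since 75th percentile scaling gave -0.40 for TNNC2 (adjusted p = 0.0265), -0.37 for TNNI2 (adjusted p = 0.045) and -0.33 for TNNT3 (adjusted p = 0.062), and the authors' values turned the sign of TNNT3 (0.006).

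TNNT2 read 34180 and 39374 in WB1, against 2384, 1553 and 9695 in nonWB1. It read 16626, 7766 and 14034 in WB2, against 2799, 2000.5, 3169 and 2110.2 in nonWB2, and 42253, 16610 and 1687 in WB3, against 918, 5371, 2457 and 4403 in nonWB3. The WB arrays were high in every pair except WB3 replicate 3, the array that was also low in MYOG. The highest non-WB array was nonWB1 replicate 3 for TNNT2, as for MYOG. Leaving out 1 array of the 19 gave MYOG a mean log2FC of 0.87 (without WB1 replicate 1) to 1.26 (without WB1 replicate 2), with adjusted p of 0.00257 to 0.0478. It was 1.17 without WB3 replicate 3 and 1.23 without nonWB1 replicate 3, arrays whose MYOG values lay against the difference.

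Without WB3 replicate 3, 15 of the 25 targets rose and 4 fell, where 38.7% of all probes passed, and without nonWB1 replicate 3, 12 rose and 4 fell, where 23.1% did. The 16 target calls kept their direction in both fits, with 75th percentile scaling and with the authors' values. Over the WB2 and WB3 pairs alone all 16 kept their sign with a list median of 0.53. None of them passed there, where only 2 of all probes did, with the adjusted p of CSRP3 at 0.131 (log2FC 3.12). With the row of the array as a term, 6 rose and 1 fell, where 6.78% of all probes passed. MYOG itself then had a log2FC of 1.51 (adjusted p = 0.0292), and over first-row arrays alone 1.43 (adjusted p = 0.0938).

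**Figure D3:**
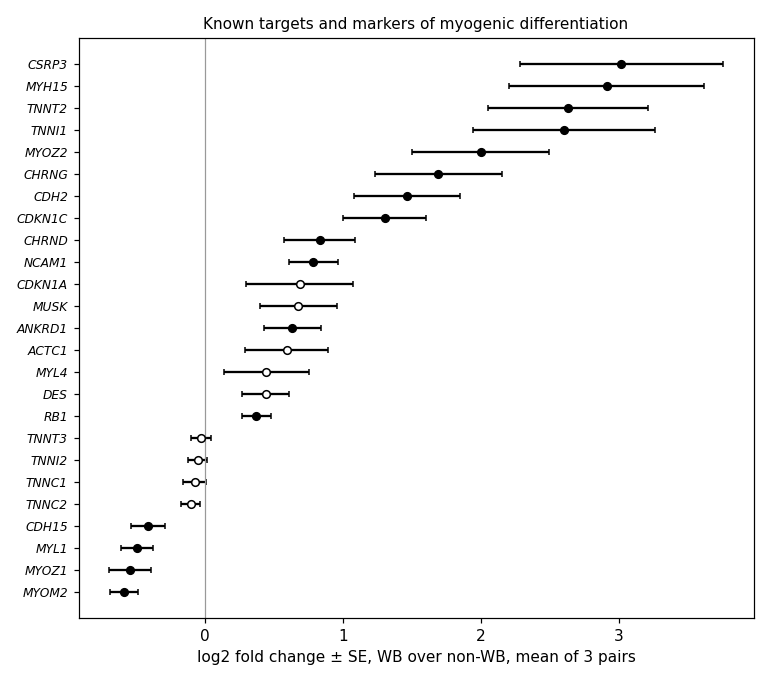
Log2FC of WB over non-WB (horizontal axis, mean of 3 pairs, bars ± SE) for the 25 tested genes known as targets of myogenic factors. Filled points passed the call, 12 to the right of 0 up to CSRP3 at 3.02 and 4 to the left down to MYOM2 at -0.59.

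Proteins that modify the activity of the myogenic factors were called about as often as all probes. Of 41 such co-regulators, 35 had a probe and 32 were tested in WB, and 7 of the 32 passed, 5 higher and 2 lower, where 24.0% of all probes did. Their median log2FC was 0.16. The counts were 8 higher and 6 lower without WB3 replicate 3, where 38.7% of all probes passed, and 5 and 1 without nonWB1 replicate 3, where 23.1% did. They were 14 and 0 with the authors' values, where 29.3% of all probes passed and the median log2FC of all probes was 0.29. With the row of the array as a term they were 0 and 0, where 6.78% passed. EYA2, a transcriptional coactivator upstream of the myogenic factors, rose by 1.11 (SE 0.28, adjusted p = 0.0165). MSTN, the secreted inhibitor of muscle growth, rose by 0.75, ID4, of a family that sequesters partners of MYOD1 and MYOG, by 0.72, the repressor SNAI2 by 0.60 and WWTR1, a coactivator of TEAD proteins, by 0.38. SRF and its cofactor MYOCD, activators of actin genes, fell by 0.64 and 0.79. None of these 7 passed over the WB2 and WB3 pairs alone, where all kept their sign and only 2 of all probes passed.

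Markers of other cells moved in the same samples, in a comparison in which 24.0% of all probes passed. Of 7 tested fibroblast markers 6 rose in WB (median log2FC 1.05), and their summed level, over all 8 matched markers, ranged from 191325 to 491874 in WB and from 170484 to 275711 in non-WB muscle. Of 7 macrophage markers 6 rose (median 1.08), with sums of 123060 to 287877 in WB and 126670 to 195954 in non-WB. Of 7 tested genes listed for satellite cells and myoblasts, HGF and CXCR4 rose, by 1.38 and 0.61, and SDC3, FGFR4 and CDH15 fell, by 0.85, 0.51 and 0.41. Whether the RNA of these listed genes came from satellite cells or myoblasts was not tested. Among the other lists 1 of 5 adipocyte markers rose, 1 of 5 endothelial markers fell, and none of 4 erythrocyte, 4 muscle fibre and 5 proliferation markers passed. With 75th percentile scaling 2 of the 4 muscle fibre markers were called lower, TNNC2 and TNNI2, where 23.5% of all probes passed. Without WB3 replicate 3 the proliferation markers TOP2A (0.46) and CDK1 (0.44) were called higher, where 38.7% did. With the row of the array as a term 1 of 7 fibroblast and 3 of 7 macrophage markers were called, where 6.78% of all probes passed. Over the WB2 and WB3 pairs alone none of either list was, where only 2 of all probes passed. The part of these markers in the MYOG and target values was not tested.

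In the WS experiment none of the 24 probes was called between any 2 severity levels, and none of all 32629 probes tested was (0% in each of the 6 comparisons, by limma and by the methods' t-test). Before adjustment, p of 0.05 or below was reached by 4914 probes for mild against non-WS, 4862 for moderate against non-WS and 1759 for severe against non-WS. It was reached by 2804 for moderate against mild, 3072 for severe against mild and 2661 for severe against moderate. The comparisons with non-WS share its 4 arrays.

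MEF2C had the lowest adjusted p of the 8 genes for moderate and for mild WS against non-WS. Its probe was named only through the study's lists of transcripts that differed between WS levels in these samples. Its rank and non-overlap therefore describe a selected probe and are no test. Its level was 237, 230.1, 147 and 158 in non-WS muscle, from 59.8 through a median of 93.0 to 142 in mild, from 64.8 through 82.6 to 127 in moderate, and 137, 168, 153 and 129.7 in severe WS. All mild and all moderate arrays lay below all non-WS arrays, and all severe arrays lay above all moderate ones. Non-overlap with the lower level in the striped muscle held for 1.83% of all probes in mild and 1.82% in moderate WS against non-WS, and non-overlap with a higher level in severe than in moderate WS for 1.08%.

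The log2FC of MEF2C was -0.75 in mild (SE 0.19, adjusted p = 0.133), -0.93 in moderate (SE 0.19, adjusted p = 0.0696) and -0.37 in severe WS against non-WS (SE 0.20, adjusted p = 0.926). Severe exceeded moderate WS by 0.56 (SE 0.19, adjusted p = 0.529). Within slides 1 and 2 moderate minus non-WS was -1.22 and -0.72, and severe minus moderate was 0.60 on each. Moderate against non-WS passed the call on leaving out moderate replicate 6 (adjusted p = 0.0452) or mild replicate 6 (0.0451), and not otherwise. First-row arrays, all of them non-WS or severe WS, read 129.7 to 237, and second-row arrays, all mild or moderate, read 59.8 to 142, so that here too the row and the group cannot be told apart.

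MYOD1 and PAX7 were also lower in moderate than in non-WS muscle before adjustment. MYOD1 read 28282, 15008, 32418 and 24572 in non-WS, 13066 to 26875 (median 17878) in mild, 6437 to 21606 (median 14469.9) in moderate, and 26632, 20891, 16950.5 and 11923 in severe WS. The groups overlapped, and moderate against non-WS gave -0.97 (SE 0.31, adjusted p = 0.170), with -1.05 and -1.18 within slides 1 and 2. PAX7 read 714, 518, 729 and 424 in non-WS, 273 to 740.2 (median 388) in mild, 143 to 634 (median 387) in moderate, and 378, 416, 487 and 442 in severe WS. These also overlapped, and moderate against non-WS gave -1.003 (SE 0.34, adjusted p = 0.189) on the brightest of its 4 probes. The other 3 gave -0.91 to -0.88 (adjusted p of 0.230 to 0.269), and on 1 of them, XM_015296832.1, moderate (75.6 to 314) and non-WS muscle (333 to 428) did not overlap, so that 2 of the 24 probes, with MEF2C, were free of overlap in this comparison. On PAX7 the value was -1.95 within slide 1 and -0.53 within slide 2, so that the low moderate arrays were those of slide 1.

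Counted without adjustment (p of 0.05 or less and FC of 1.2 or more), 6 of the 24 probes differed between moderate and non-WS, all lower and covering PAX7, MYOD1 and MEF2C, where 14.6% of all probes did, 8.17% lower. There were 2 for mild against non-WS (14.7% of all probes), 2 for severe against mild (8.94%), 3 for severe against moderate (7.85%) and 0 for severe against non-WS (5.20%) and moderate against mild (7.61%). All 4 PAX7 probes were among the 6 and share a gene, and the MEF2C probe was named through lists chosen on the WS samples. These counts are therefore a description and no test.

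MYOG was not called between WS levels. It read 637, 802, 593 and 557 in non-WS, 202 to 709.6 (median 436) in mild, 197 to 977 (median 373) in moderate, and 503, 926, 539 and 734 in severe WS. The groups overlapped, and against non-WS the log2FC was -0.68 in mild (adjusted p = 0.438), -0.61 in moderate (adjusted p = 0.492) and 0.03 in severe WS (95% confidence interval -0.85 to 0.92). The WS and WB experiments were normalized separately, so their levels are not compared.

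Group means of the remaining genes were close together. MYF5 averaged 389.6 ± 51.6 in non-WS, 425 ± 149 in mild, 366 ± 51.8 in moderate and 336 ± 88.1 in severe WS (SD, n = 4, 7, 6 and 4). MYF6 averaged 2967 ± 1221, 2259 ± 1147, 2724 ± 911 and 2862 ± 1572 in the same order, and TEAD4 7786 ± 1636, 8989.7 ± 2692, 9247 ± 3357 and 8156 ± 1864. The 95% confidence intervals of severe minus non-WS were -0.66 to 0.17 for MYF5, -0.92 to 0.76 for MYF6, -0.48 to 0.60 for TEAD4 and -0.35 to 0.29 for the brightest MEF2A probe, XM_015292073.1.

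**Figure D4:**
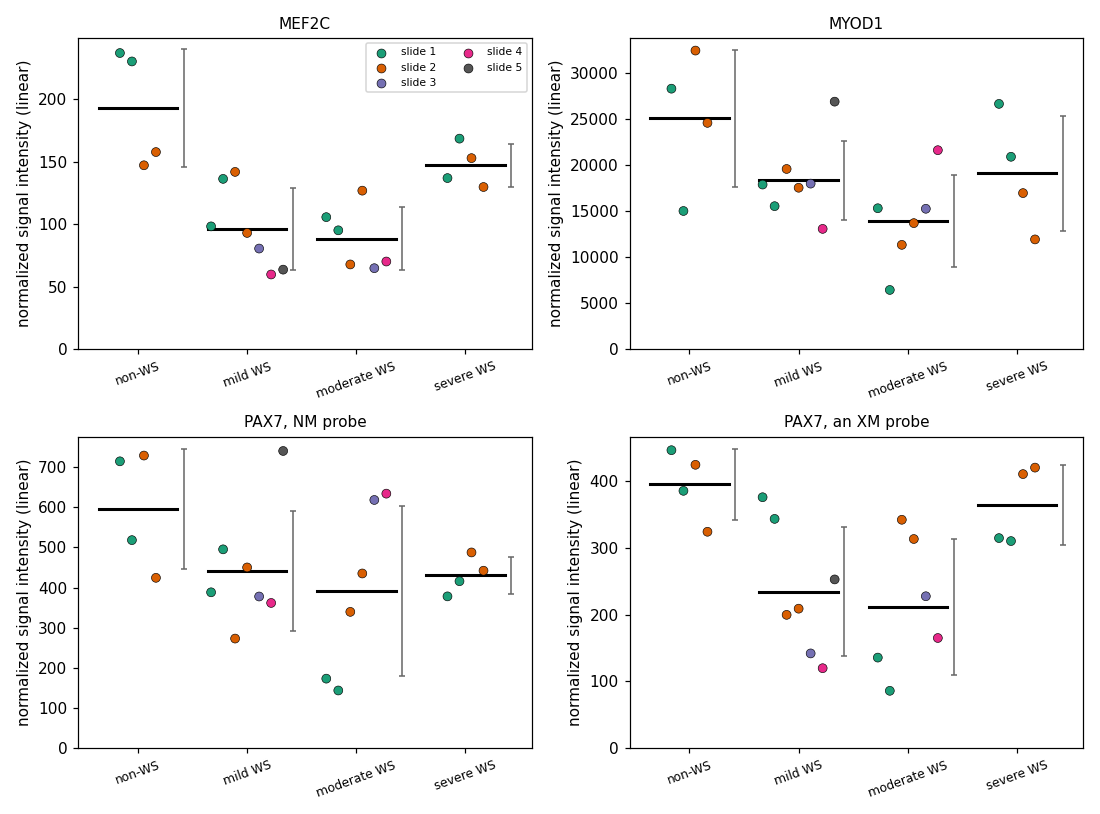
Normalized intensity (vertical axes, linear from 0) of MEF2C, MYOD1 and 2 PAX7 probes (NM_205065.1 and a predicted transcript) in non-WS, mild, moderate and severe WS arrays, coloured by slide, with group means as lines and ± SD as side bars. The 4 non-WS MEF2C values (147 to 237) lie above all mild and moderate values, and the levels of MYOD1 and PAX7 overlap across groups. The MEF2C probe was named only through gene lists chosen on the WS samples.

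Target and co-regulator genes gave no call in WS. Of 23 tested targets the 3 largest log2FC were 1.21 for CDKN1C in moderate against mild WS (adjusted p = 0.524), 1.07 for ANKRD1 in moderate against mild WS (adjusted p = 0.457) and 0.997 for MYH15 in moderate against non-WS. Of 28 tested co-regulators they were -1.37 for VGLL2, a TEAD cofactor, in moderate against non-WS (adjusted p = 0.24), -1.05 for VGLL2 in mild against non-WS, and -0.95 for ID2, an inhibitor of myogenic factors, in mild against non-WS (adjusted p = 0.075). Fibroblast marker sums spanned 117804 to 142082 in non-WS, 123288 to 238479 in mild, 162783 to 321647 in moderate and 104691 to 186977 in severe WS. Erythrocyte marker sums spanned 50942.6 to 69260.4, 18218 to 42179, 22269 to 69223 and 30357 to 47359.8 in the same order. Their part in the MEF2C, MYOD1 and PAX7 values was not tested.

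Probes of a gene did not always follow each other. Over the 21 WS-experiment arrays, the 9 predicted-transcript probes of MEF2A correlated with each other at r of 0.961 to 0.991, and with the probe of NM_204864.2 at only 0.371 to 0.436. On the WB-experiment arrays the NM_204864.2 probe correlated with them at 0.843 to 0.929. For PAX7 the corresponding values in WS were 0.990 to 0.991 among the predicted transcripts and 0.616 to 0.641 with NM_205065.1, while the 5 TEAD4 probes correlated at 0.973 to 0.994. These are descriptions across arrays that share slides and groups.

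The NM_204864.2 probe of MEF2A separated the slides of the WS experiment, a pattern picked after its values were seen. It read 681 to 1055 on the 5 arrays of slides 3 to 5 and 1692 to 3192 on the 16 arrays of slides 1 and 2, with no overlap. Within mild and moderate WS, slides 3 to 5 minus slides 1 and 2 gave -1.52 and -1.64, a mean of -1.58, while XM_015292073.1 gave -0.08 and -0.34. Of all probes tested, 5.45% had a mean difference beyond 1 in size in either direction. MYF6 gave -0.75, MEF2C -0.64 and the NM_205065.1 probe of PAX7 0.80. Slides 3 to 5 held no non-WS or severe WS array, and they carried all arrays of the WB experiment. The slide was a term of every limma comparison reported above, and the methods' t-test had no slide term.

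**Figure D5:**
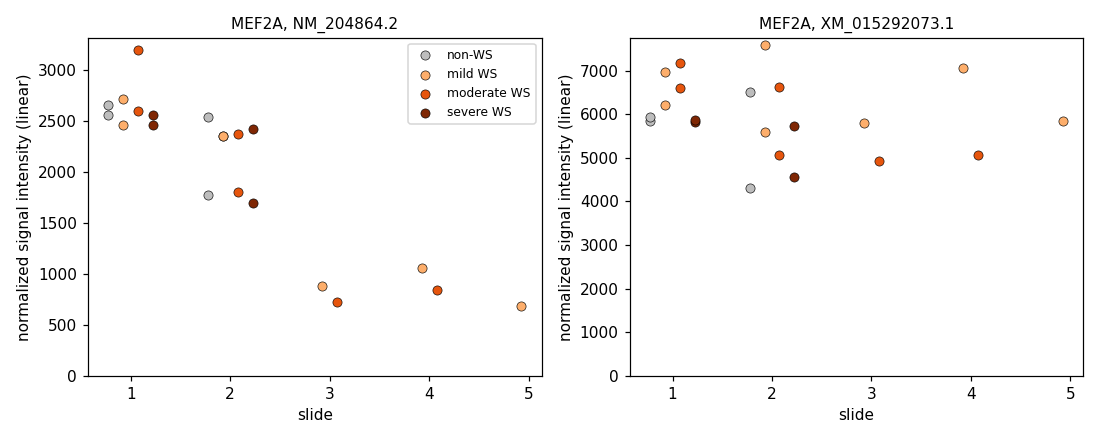
Normalized intensity (vertical axes, linear from 0) of 2 MEF2A probes on the WS-experiment arrays by slide, coloured by severity. NM_204864.2 lies at 1692 to 3192 on slides 1 and 2 and at 681 to 1055 on slides 3 to 5, while XM_015292073.1 overlaps across slides.

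Among the brightest probes of the 8 genes over the 19 WB-experiment arrays, MYOG correlated with MEF2A at r of -0.69 and with MEF2C at -0.52, and MEF2A with MEF2C at 0.70. Over the 21 WS-experiment arrays MYOG and MEF2C correlated at 0.41 and MEF2A and MEF2C at -0.01, and the highest values were those of PAX7 with MYOD1 (0.65), TEAD4 (0.60) and MYOG (0.57). The named genes whose profile was most like that of MYOG were LEUTX, MYCL and SLC31A1 in the WB experiment (r of 0.902, 0.890 and 0.886) and PMEPA1, NFIX and MID1 in the WS experiment (0.850, 0.831 and 0.801). For MEF2C they were CLIP4, SAMD4A and SH3BP5 in WB (0.884, 0.867 and 0.855), and for MEF2A TTC3, BRPF3 and RC3H2 (0.940, 0.920 and 0.892). For MYOD1 the closest profiles reached only 0.743 in WB (RRAS) and 0.762 in WS (CHST9), and for PAX7 0.789 (DUS4L) and 0.855 (RHBDF1). All arrays of an experiment share its groups, slides and normalization, so these values describe likeness across these arrays.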

How the data were processed

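The authors hybridized total RNA to custom single-color Agilent chicken arrays designed on an NCBI transcript release and quantified spots with Feature Extraction 10.7.1.1. The deposited intensities are background-subtracted processed signals per spot, not normalized between arrays. A second deposited table holds intensities normalized by the authors, and on the WB-experiment arrays these equal the unnormalized processed signal. It served as an alternative. No spot was saturated, and the number of arrays limits the precision.

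Spots of a probe were averaged, and probes were kept when well above background, not flagged with a signal of at least 20 throughout an experiment. Within each experiment, signals were quantile normalized and put on the log2 scale, and limma 3.58.1 (R 4.3.3) fitted groups and slides (21 WS-experiment arrays, 32629 probes; 19 WB-experiment arrays, 34518 probes), with Benjamini-Hochberg adjustment over all probes. A call needed an FDR of 0.05 or less and an FC of 1.2 or more. Mild WS replicate 7 was alone on its slide within its experiment, so it adds nothing to the WS contrasts. In the WB experiment nonWB2 replicate 4 and nonWB3 replicate 4 were the only arrays of their groups on slide 5. With the slide as a term they do not enter the log2FC of the WB contrasts. WB contrasts averaged the 3 pairs equally. The fit was tested on simulated data.

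Probes were named through a RefSeq table (46.0% of probes) and the study's gene lists (0.457%), and 53.5% stayed unnamed. All listed genes were named in the text, by the probe of highest mean signal. Of the target and co-regulator lists, the text names members that passed the call or, where none did, the 3 largest log2FC. For some of the listed genes it gives up to 3 of the named genes most correlated with them. The genes and lists were chosen with earlier results of these data known. Alternatives covered background, normalization, filters, slide term, threshold, samples fitted, the methods' t-test and each array left out. That t-test left out the removal of batch effects that the methods describe. No comparison columns of the authors were used.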

Additional observations from a re-analysis of the deposited data

Results flagged for a closer look

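In 48 groups of 4 to 7 arrays, 4 held an array with a wide gap to the rest, where chance gives about 1 in 20 groups. MYOD1 was 10700 in nonWB3 replicate 4, against 30680 to 33660 on the other 3 arrays. That array does not enter the log2FC of the third pair. MEF2C was 50.8 in nonWB3 replicate 1, against 103.7 to 108.1 on the others. MEF2A (XM_015292073.1) was 4560 in severe WS replicate 4, against 5721 to 5864, and TEAD4 was 19800 in nonWB2 replicate 2, against 13090 to 13800.

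The direction in WB differed between pairs for 2 genes. On its brightest probe PAX7 lay above the non-WB mean of its slide on both WB1 arrays (log2FC 0.62) and below it on all WB2 and WB3 arrays (-0.255 and -0.35). Its 4 probes spanned 0.40 to 0.62 in the first pair, -0.39 to -0.25 in the second and -0.61 to -0.35 in the third. On the brightest probe the difference of the first pair from the second was 0.87 (adjusted p = 0.433) and from the third 0.97 (adjusted p = 0.521). MYOD1 lay above the non-WB mean on all 3 WB2 arrays (0.586) and below it on both WB1 arrays (-0.769), a difference whose adjusted p was 0.213.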

How the results depend on the processing

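In WB against non-WB over the 3 pairs, 3 of the 24 probes passed. The number was 12 at an FDR of 0.2, without a slide term and with the slide as a random block, and 8 with 75th percentile scaling and the methods' t-test. At an FDR of 0.2 the 12 were the 10 MEF2A probes, which share a gene, and those of MYOG and MEF2C. The number was 1 with the authors' values, without a detection filter, with detection in at least 1 group and with the array row as a term, and 0 over first-row arrays or over the WB2 and WB3 pairs alone. Leaving out single arrays gave 1 to 12, with 12 without WB3 replicate 3 and 10 without nonWB1 replicate 3. The calls over all probes were 3910 upward and 4382 downward, and 8824 and 1299 with the authors' values. They numbered 8292, against 14646 at an FDR of 0.2, the highest number under these settings. With 75th percentile scaling they numbered 8128 (23.5%), with the row term 2340, over first-row arrays 6 and over the WB2 and WB3 pairs 2.

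For WB1 against nonWB1 1 probe passed, and at an FDR of 0.2 13 did, 10 of them probes of MEF2A. The number was 5 with the authors' values, 2 with 75th percentile scaling or with only the groups compared, and 0 over first-row arrays or by the t-test. Leaving out single arrays gave 0 to 3. All probes called numbered 4007, against 14415 with the authors' values, 6732 with only the groups compared, 62 over first-row arrays, 35 by the t-test, 20 without WB1 replicate 1, 21 without WB1 replicate 2, 270 without nonWB1 replicate 2 and 8423 without WB3 replicate 3. MYOG in this pair was not called without WB1 replicate 1 (adjusted p = 0.146), WB1 replicate 2 (0.106), nonWB1 replicate 1 (0.0541) or nonWB1 replicate 2 (0.0680). WB3 against nonWB3 gave 4560 calls of all probes without WB3 replicate 3, none of them among the 24.

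At an FDR of 0.2, 3 probes passed for moderate against non-WS, those of MEF2C and MYOD1 and the brightest of PAX7. For mild against non-WS 1 passed, that of MEF2C. Leaving out single arrays gave 0 to 1 for moderate. The MEF2C probe was named through lists chosen on the WS samples, so these counts are a description and no test. Over the settings tried, the calls of all probes reached up to 1682 for moderate and 1434 for mild against non-WS. The sign turned for MEF2A in WB with the authors' values, for NM_204864.2 over the 3 pairs (0.0035) and for XM_015292075.1 in the first pair (0.12). MYOG over the 3 pairs passed under all 11 other settings fixed with the design and on leaving out any single array (log2FC 0.87 to 1.26). The cause of these changes was not tested, except that fewer arrays enter the fits over rows and pairs. The row term, the first-row fit, the fit over 2 pairs and the counts of targets and co-regulators under other settings were chosen after seeing the data.

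With the replicate number as a block, 1 probe passed in WB over the 3 pairs, with 7272 of all probes. Same-numbered arrays of different groups deviated with r of -0.233 to 0.326 in WS (median 0.0676) and -0.299 to 0.375 in WB (median -0.00366). Differently numbered arrays gave -0.54 to 0.482 (median -0.0203) in WS and -0.487 to 0.397 (median 0.00476) in WB. These ranges showed no pairing by number but cannot exclude it, since in WS the number also followed the slide. A fit of only the groups compared was not run for the mean of 3 pairs or the age difference, nor the t-test for the age difference.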
